A study of Homo sapiens with 7 samples.

Results

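DEPDC1, the gene targeted by the siRNA, and 6 other genes that encode a DEP domain were followed through RNA sequencing of MDA-MB-231 cells. The 7 genes, DEPDC1, DEPDC1B, DEPDC4, DEPDC5, DEPDC7, DEPTOR and PREX1, were taken by name from the 60675 gene identifiers of the deposited count table. MDA-MB-231 is an established, mesenchymal-like human breast cancer line of the triple-negative class, which lacks the estrogen receptor, the progesterone receptor and amplified HER2. One group was transfected with a control siRNA (siCTL, DEPDC1 WT in the labels, n = 3 libraries) and the other with siRNA against DEPDC1 (siDEPDC1, DEPDC1 KD in the labels, n = 4 libraries). Both groups received 5 µl of 20 µM siRNA with Lipofectamine RNAiMAX, were moved to fresh medium after 8 h and were harvested on day 2. All libraries therefore come from lipid-transfected cells of a single line, and no untransfected or rescued cells were analysed here. The labels do not say whether libraries of a group came from separate cultures, so the p-values below reflect the spread among the libraries alone, and that spread may be technical.

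The DEP domain takes its name from Dishevelled, EGL-10 and Pleckstrin, the proteins in which it was first recognised. It is a small globular fold that helps signalling proteins dock on membranes or on partner proteins, and it occurs in otherwise unrelated proteins. DEPDC1 and DEPDC1B are paralogs that join a DEP domain to a RhoGAP-like domain, and both are known as genes of proliferating cells that are highly expressed in many tumours. DEPDC5 and DEPTOR act in the mTOR pathway, in which 2 kinase complexes couple growth to nutrients. DEPDC5 is a subunit of GATOR1, which restrains mTORC1 at the lysosome, and DEPTOR binds mTOR itself and inhibits it. PREX1 is a guanine exchange factor that loads Rac GTPases with GTP and is known in breast cancer cells for coupling growth factor receptors to cell movement.

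The coding sequence of DEPDC1 is shown beside that of its paralog because a siRNA acts through base pairing, and the paralog is the member most like its target. Over the best local alignment, 226 of 327 alignment positions (69.1%, gaps counted as positions) were identical between the coding sequences. This stretch covered 20.1% of the DEPDC1 coding sequence. Its best-matching 120 bases lie in exons 5 to 7 of 11 in both genes. They are coding bases 713 to 832 of 1581 in transcript DEPDC1-201, spanning chr1:68484028-68488382 on the minus strand of GRCh38. In DEPDC1B-201 they are coding bases 701 to 820 of 1587, spanning chr5:60638828-60644753 on the minus strand. Capitals mark the 84 bases (70.0%) that are the same in both genes.
DEPDC1: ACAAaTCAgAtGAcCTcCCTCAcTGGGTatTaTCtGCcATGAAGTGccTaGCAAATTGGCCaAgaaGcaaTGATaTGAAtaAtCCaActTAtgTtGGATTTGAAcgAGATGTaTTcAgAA
DEPDC1B: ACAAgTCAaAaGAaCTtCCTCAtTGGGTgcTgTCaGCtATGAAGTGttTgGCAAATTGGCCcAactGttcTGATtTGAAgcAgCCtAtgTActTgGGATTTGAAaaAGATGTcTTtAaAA

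The longest unbroken run of identical bases within this window was 11. Over the whole transcripts, the longest run that DEPDC1 shares with DEPDC1B was 13 bases, in exon 2 of 11 of both genes, at chr1:68494607-68494619 and chr5:60687139-60687151. It is printed in capitals between its neighbouring bases because it is the longest perfect match that a short RNA aimed at one paralog could find in the other.
DEPDC1 run: atatggcaATTGTTTCACAGCaggagaag
DEPDC1B run: ctatgagcATTGTTTCACAGCggccgaag

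A run of 13 bases is common between unrelated transcripts. The longest run shared with DEPDC1 had a median of 12 bases over 12621 coding transcripts of tested genes (1 transcript for each gene), and it reached 13 or more in 40.4% of them. The other members shared runs of 12 bases (DEPDC4), 13 (DEPDC5), 14 (DEPDC7), 11 (DEPTOR) and 11 (PREX1) with DEPDC1. A run of at least 19 bases, the length of the paired core of a typical siRNA, was shared with DEPDC1 by 9 genes (0.0713%), and none of them was in a list of 22 genes that encode a DEP domain. The labels give no siRNA sequence and do not tell a single duplex from a pool, so no match between the siRNA itself and these genes was examined.

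The libraries held between 7690583 and 15360409 counts each, and 16583 genes passed the filter on low counts and were tested. Levels are CPM, counts divided by the library's total after scaling with TMM factors, and a log2 fold change is siDEPDC1 over siCTL from edgeR's quasi-likelihood test with Benjamini-Hochberg adjustment at 0.05. A gene is said to have risen or fallen only where it passed that threshold. Of the tested genes, 5707 passed (34.4%), with 2975 lower (17.9%) and 2732 higher (16.5%), and in 6189 (37.3%) the values of the groups did not overlap. The median log2 fold change over all tested genes was 0.00094. Of 6 markers of the line, VIM (3491 to 3869 CPM), CD44 and AXL did not pass, KRT18 rose (log2 fold change 0.30), and CAV1 (-0.42) and EGFR (-0.28) fell. Of 5 epithelial markers, CDH1 fell from a mean of 1.11 to 0.372 CPM, KRT19 rose from 361 to 427 CPM and 3 did not pass. ESR1 and PGR at no more than 0.525 and 0.651 CPM, and ERBB2, the HER2 gene, at 61.7 to 70.6 CPM. Of the fibroblast markers, DCN was at 0 in every library, while COL1A1 rose from a mean of 12.9 to 30.2 CPM and the summed level of the 4 markers went from 17.2 to 35.7 CPM. Of 3 leukocyte markers, summed at 2.98 and 3.65 CPM, CD14 rose from 2.06 to 3.25 CPM, while PTPRC, which was not tested, had means of 0.873 and 0.283 CPM. The summed level of 2 endothelial markers went from 13.1 to 11.4 CPM. The part of these markers in the results below was not tested, and in bulk RNA a change in the share of cells and a change in RNA per cell cannot be told apart.

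DEPDC1 (ENSG00000024526, chr1:68474152-68497221, minus strand) fell 8.89-fold (95% interval 7.99 to 9.89), which left 11.3% of its control level. Its level was 114, 119 and 120 CPM in siCTL replicates 1 to 3. In siDEPDC1 replicates 1 to 4 it was 15.3, 12.7, 13.4 and 11.9 CPM. Every knockdown library was far below every control library, and both groups were tight (118 ± 3.20 CPM, SD, n = 3, against 13.3 ± 1.43, SD, n = 4). Between 103 and 172 DEPDC1 counts remained in each knockdown library, so the remaining level was measured well above a count of 0. The log2 fold change was -3.15 ± 0.075 (SE, edgeR adjusted p = 1.2e-26), the smallest p among all tested genes and the third lowest log2 fold change. The labels KD and WT matched the DEPDC1 level in all 7 libraries.

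**Figure D1:**
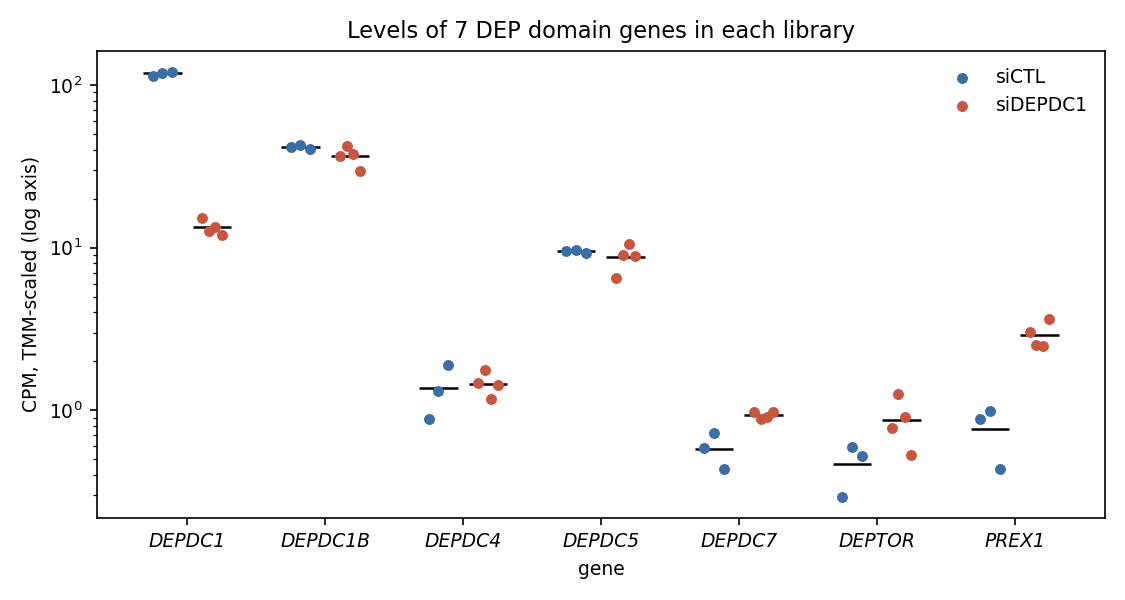
Level of each of the 7 DEP domain genes in every library (CPM scaled by TMM factors, log axis), with siCTL (n = 3) in blue, siDEPDC1 (n = 4) in red and bars at the group means. DEPDC1 separates the groups by 8.89-fold and PREX1 separates them in the other direction, while the values of DEPDC1B, DEPDC4, DEPDC5 and DEPTOR overlap.

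DEPDC1B (ENSG00000035499, chr5:60596912-60700190, minus strand), the paralog that is known for cell detachment before mitosis, did not pass the test. Its level was 41.6, 42.9 and 40.6 CPM in the controls and 36.7, 42.3, 37.5 and 29.5 CPM in the knockdown libraries. The groups overlapped, because siDEPDC1 replicate 2 lay within the control range while replicate 4 was the lowest of all. The log2 fold change was -0.19 ± 0.084 (SE, edgeR adjusted p = 0.0751), with a 95% interval of -0.36 to -0.021. The interval leaves a moderate fall possible, but its lower bound is far from the change of DEPDC1. The call of DEPDC1B depended on single libraries and on the filter: without siDEPDC1 replicate 2 the log2 fold change was -0.28 (edgeR adjusted p = 0.015), without siDEPDC1 replicate 4 it was -0.094, and with no count filter it was -0.21 (adjusted p = 0.045).

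The balance between the paralogs turned over. Divided by the length of the merged exons (RPKM, the CPM level for each kilobase of exon), DEPDC1 stood 1.77, 1.79 and 1.91 times above DEPDC1B in the control libraries. In the knockdown libraries the same ratio was 0.268, 0.193, 0.231 and 0.261, so DEPDC1B was the more abundant paralog in all 4. The mean ratio went from 1.82 ± 0.0763 (SD, n = 3) to 0.238 ± 0.0342 (SD, n = 4), and with the longest annotated transcript as length it went from 1.33 ± 0.0555 to 0.173 ± 0.0248.

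PREX1 (ENSG00000124126, chr20:48624252-48827883, minus strand), the Rac exchange factor, rose 3.66-fold (95% interval 2.49 to 5.38) from a low level. It stood at 0.884, 0.985 and 0.434 CPM in the controls and at 3.03, 2.50, 2.47 and 3.65 CPM in the knockdown libraries. Every knockdown library was above every control library. These levels rest on few counts, which were 12, 15 and 5 in the controls and 31, 34, 19 and 41 in the knockdown libraries. The log2 fold change was 1.87 ± 0.27 (SE, edgeR adjusted p = 1.4e-06), the rank of 16 from the highest among 16583 tested genes. PREX1 met the filter on low counts, 0.854 CPM in at least 3 libraries, in 2 controls and all 4 knockdown libraries, so it was tested only because of its level in the knockdown group. Without the filter its log2 fold change was 1.86. An overlapping long noncoding gene, ENSG00000278231, had no count in any library. With PREX1 and DEPDC1, 2 of the 6 tested members passed in either direction, beside 34.4% of all tested genes. DEPDC1 is the siRNA target and PREX1 was tested only because of its knockdown level, so this count says little about the members as a set.

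DEPDC5 (ENSG00000100150, chr22:31753867-31908033, plus strand), the GATOR1 subunit, did not pass. Its level was 9.58, 9.65 and 9.21 CPM in the controls and 6.55, 9.06, 10.5 and 8.91 CPM in the knockdown libraries. The knockdown values spread on both sides of the controls, with replicate 1 lowest and replicate 3 highest. The log2 fold change was -0.13 ± 0.13 (SE, edgeR adjusted p = 0.469), and the 95% interval ran from -0.38 to 0.13. A gene that shares exons with DEPDC5 on the same strand, ENSG00000285404, was listed at 0 in every library.

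DEPTOR (ENSG00000155792, chr8:119873717-120050913, plus strand), the mTOR inhibitor, was close to the limit of detection and did not pass the filter on low counts. Its level was 0.295, 0.591 and 0.521 CPM in the controls and 0.783, 1.25, 0.912 and 0.535 CPM in the knockdown libraries, on 4 to 17 counts each. Knockdown replicate 4 lay within the control range and the other 3 lay above it. Fitted without the filter, the log2 fold change was 0.88 ± 0.42 (SE, edgeR adjusted p = 0.174), with a 95% interval of 0.054 to 1.71. Without siDEPDC1 replicate 4 the log2 fold change was 1.09 (edgeR adjusted p = 0.040), which is past the threshold. That fit kept the filter on low counts, which DEPTOR met only through its level in the knockdown libraries. Its adjusted p is therefore taken over another set of genes than the 0.174.

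DEPDC7 (ENSG00000121690, chr11:33015864-33033582, plus strand), reported to take part in CARD-BCL10-MALT1 signalling to NF-kB, was also near the floor. Its level was 0.589, 0.722 and 0.434 CPM in the controls and 0.978, 0.884, 0.912 and 0.98 CPM in the knockdown libraries. All 4 knockdown libraries were above all 3 controls, on 5 to 12 counts each. DEPDC7 met the same filter only in the knockdown group, so its separation was in part required for it to be tested. The log2 fold change was 0.65 ± 0.36 (SE, edgeR adjusted p = 0.167), with a 95% interval of -0.083 to 1.38. DEPDC4 (ENSG00000166153, chr12:100203669-100267079, minus strand) stood at 0.884, 1.31 and 1.91 CPM in the controls and at 1.47, 1.77, 1.17 and 1.43 CPM in the knockdown libraries. The knockdown values of DEPDC4 lay inside the control range, and its log2 fold change was 0.15 ± 0.28 (SE, edgeR adjusted p = 0.713). Exons of DEPDC4 overlap those of ACTR6 on the opposite strand, a gene with 258 to 462 counts for each library and a log2 fold change of 0.34 (edgeR adjusted p = 7.7e-04). Without a known strand setting, reads of DEPDC4 and ACTR6 cannot be told apart.

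Per length, the members fell into an abundant pair and a group of weakly expressed genes. In the control libraries DEPDC1 led with 20.0 ± 0.543 RPKM (SD, n = 3), above DEPDC1B with 10.96 ± 0.310. DEPDC5 followed at 0.547 ± 0.0136 and DEPDC4 at 0.439 ± 0.166, and the ranges of this pair overlapped. DEPTOR (0.179 ± 0.0591 RPKM), DEPDC7 (0.175 ± 0.0433) and PREX1 (0.104 ± 0.0396) were lowest, and each overlapped its neighbour in the order. With the longest annotated transcript as length, DEPDC5 was 1.46 RPKM and DEPDC4 0.586 in the controls, and their ranges no longer overlapped in either group. DEPDC7 then also stood above DEPTOR by mean, with overlapping ranges, in both groups, while DEPDC1, DEPDC1B and DEPDC5 kept the order of the merged-exon levels.
In the knockdown libraries the order was led by DEPDC1B with 9.59 ± 1.39 RPKM (SD, n = 4), above DEPDC1 with 2.26 ± 0.242. DEPDC1 thus stayed more abundant per length than every other member except its paralog even after the knockdown. The remaining members ran from DEPDC5 (0.506 ± 0.0953 RPKM) through DEPDC4 (0.468 ± 0.0783), PREX1 (0.394 ± 0.0749) and DEPTOR (0.332 ± 0.114) to DEPDC7 (0.282 ± 0.0145), and each overlapped the next. Among the 22 DEP domain genes, DEPDC1 moved from rank 3 to rank 7 by mean RPKM, DEPDC1B from rank 6 to rank 5, and PREX1 from rank 18 to rank 14.

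**Figure D2:**
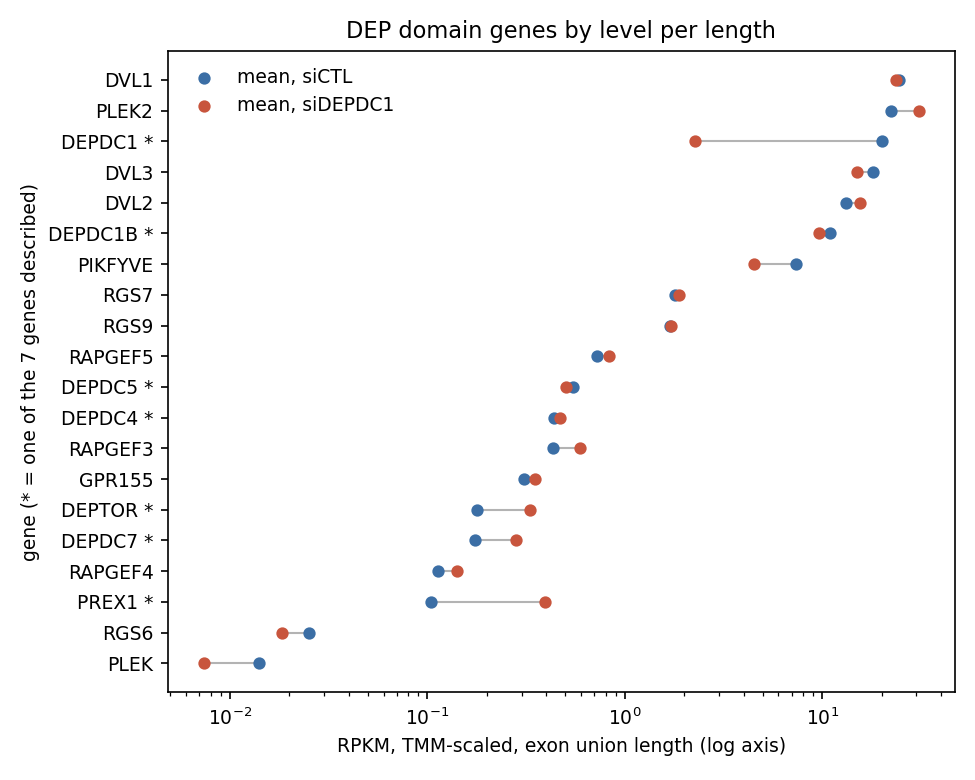
Level per length (RPKM over merged exons, log axis) of 20 DEP domain genes with a count, as the mean of the siCTL libraries (n = 3, blue) joined by a line to the mean of the siDEPDC1 libraries (n = 4, red); asterisks mark the 7 genes described. DEPDC1 drops from 20.0 to 2.26 RPKM and falls below DEPDC1B, whose mean goes from 10.96 to 9.59 RPKM.

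Of the 15 other genes that encode a DEP domain, 11 were tested, 2 fell, 3 rose and 6 did not pass. The share that passed was 45.5%, against 34.4% of all tested genes, and the median log2 fold change was 0.16 beside 0.00094. PIKFYVE, the lipid kinase that makes phosphatidylinositol 3,5-bisphosphate on endosomes, fell 1.63-fold. Its level was 79.1, 78.8 and 81.1 CPM in the controls and 56.1, 46.5, 46.0 and 46.4 CPM in the knockdown libraries. The groups were well apart, with a log2 fold change of -0.71 ± 0.068 (SE, edgeR adjusted p = 2.5e-10).

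PLEK2, a relative of the platelet protein pleckstrin, rose 1.38-fold. It stood at 34.8, 37.3 and 35.1 CPM in the controls and at 48.7, 46.3, 53.4 and 49.8 CPM in the knockdown libraries, with no overlap (log2 fold change 0.46 ± 0.071, SE, edgeR adjusted p = 3.1e-06). The Dishevelled genes, whose products relay Wnt signals from Frizzled receptors, did not move together. DVL3 fell, from 119, 111 and 118 CPM to 91.1, 89.1, 101 and 102 CPM (log2 fold change -0.27 ± 0.061, SE, edgeR adjusted p = 5.7e-04). DVL2 rose, from 69.2, 72.8 and 69.5 CPM to 74.6, 83.7, 85.8 and 86.9 CPM (0.23 ± 0.063, SE, edgeR adjusted p = 0.0044). The groups did not overlap for either gene, and DVL1 had a log2 fold change of -0.055 and did not pass.

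RAPGEF3, the cAMP-activated exchange factor EPAC1, rose from a mean of 5.24 to 7.15 CPM (log2 fold change 0.43 ± 0.15, SE, edgeR adjusted p = 0.0231). Its call was lost without siCTL replicate 2 (adjusted p = 0.165), without siDEPDC1 replicate 3 (0.0907) and in DESeq2 (0.0978). RAPGEF4, RAPGEF5, RGS7, RGS9 and GPR155 did not pass, with log2 fold changes from 0.0032 (RGS9) to 0.37 (RAPGEF4). PREX2, the close relative of PREX1, and RGS11 had no count in any library. RGS6 and PLEK reached at most 0.261 and 0.0978 CPM and were not tested.

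**Figure D3:**
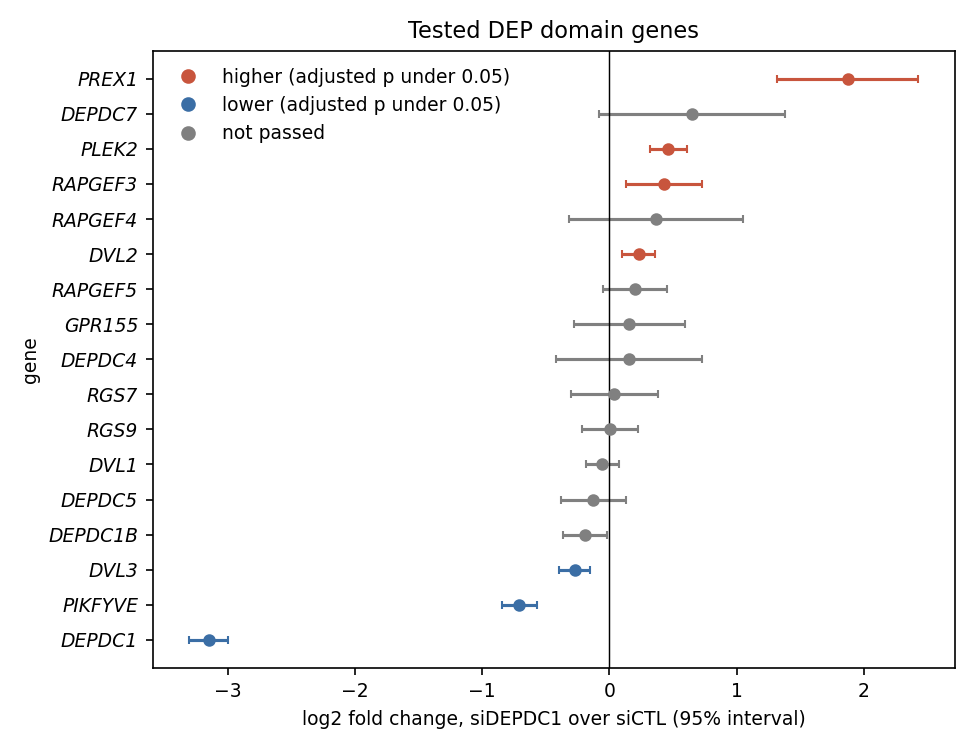
Log2 fold change (siDEPDC1 over siCTL, edgeR) of each tested DEP domain gene, with 95% intervals; blue, red and grey mark genes that fell, rose or did not pass. DEPDC1 at -3.15 and PREX1 at 1.87 lie at the ends of the family, and the other genes that passed range from -0.71 (PIKFYVE) to 0.46 (PLEK2).

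The 7-base word GATAACT was searched, on the sense strand only, because an earlier analysis of these fold changes had found it among genes that fell, so a match here adds no independent evidence. In the 3′ UTR it was carried by 949 of 12316 tested genes searched (7.71%) and by 2 of 17 tested DEP domain genes, PIKFYVE and GPR155. DEPDC1 holds a copy that spans its stop codon, in exon 11 of 11 at chr1:68476930-68476936. PIKFYVE holds its copy in exon 42 of 42 at chr2:208358673-208358679, and GPR155 at chr2:174434344-174434350. GPR155 has a further copy in its coding sequence at chr2:174461456-174461462, RAPGEF4 has one in its coding sequence at chr2:172988786-172988792, and RGS6, which was not tested, has one in the 3′ UTR of transcript RGS6-202 at chr14:72537682-72537688. Copies in DEPDC1 and in tested genes of the family are shown, 1 for each gene, with the word in capitals.
DEPDC1 stop codon: ccgtagtctaaGATAACTaactgaattaa
PIKFYVE 3′ UTR: gttatttaaaaGATAACTgccttgaactt
GPR155 3′ UTR: tcgtaatgcagGATAACTtctactttatt
RAPGEF4 coding: tcttacgagaaGATAACTgccatttctta
Of these 4 genes, DEPDC1 and PIKFYVE fell, while GPR155 (log2 fold change 0.16) and RAPGEF4 did not pass. The word was not found in any annotated coding transcript of DEPDC1B, DEPDC4, DEPDC5, DEPDC7, DEPTOR or PREX1.

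Around DEPDC1, 18 genes were annotated within 500 kb, of which 4 were tested, 3 fell and none rose. Over all tested genes 34.4% passed and 17.9% fell, and 4 genes are too few to set against these shares. The antisense gene ENSG00000233589, at chr1:68479129-68483539, lies inside DEPDC1 and overlaps its exons. It went from 16.1, 17.5 and 19.5 CPM to 1.76, 1.40, 1.95 and 1.16 CPM (log2 fold change -3.52, edgeR adjusted p = 2.7e-19). The strand setting of the counting is unknown here, and reads from these overlapping genes cannot be told apart. WLS, which carries Wnt proteins to the cell surface, fell 1.42-fold from a mean of 98.8 to 69.7 CPM (edgeR adjusted p = 1.4e-08). GNG12-AS1 fell from 2.57 to 1.60 CPM (edgeR adjusted p = 0.0212), a call that was lost without siCTL replicate 3 (adjusted p = 0.0682), without siDEPDC1 replicate 2 (0.101) and in DESeq2 (0.131). The span of GNG12-AS1 overlaps that of WLS on the opposite strand, and whether their exons overlap was not examined.

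Among the partners of DEPTOR, 25 other genes of the mTOR complexes and of DEPTOR turnover were tested, and 11 fell, 4 rose and 10 did not pass. The share that passed was 60%, against 34.4% of all tested genes, and the median log2 fold change was -0.064. The lists were not matched for level to all tested genes, of which 41.9% passed under a stricter count filter. MTOR, the kinase itself, stood at 118, 105 and 107 CPM in the controls and at 82.6, 70.5, 87.0 and 80.7 CPM in the knockdown libraries. It fell 1.38-fold with no overlap between the groups (log2 fold change -0.46, edgeR adjusted p = 7.3e-07). RICTOR, the subunit that defines mTORC2, fell 1.53-fold from 127 ± 9.62 to 82.6 ± 8.09 CPM (edgeR adjusted p = 4.0e-09). CSNK1A1, the casein kinase that helps mark DEPTOR for degradation, fell 1.79-fold from 141 ± 5.58 to 78.7 ± 4.01 CPM (edgeR adjusted p = 1.1e-13). EIF4EBP2, a repressor of cap-dependent translation that mTORC1 inactivates, fell from 179 to 121 CPM. RBX1, a component of the ubiquitin ligase that targets DEPTOR, rose from 33.6 to 41.2 CPM, and the S6 kinase RPS6KB2 rose from 37.1 to 45.1 CPM (edgeR adjusted p = 0.0020 and 0.0031). Named outside the rule for named genes, the S6 kinase RPS6KB1 fell (log2 fold change -0.40, edgeR adjusted p = 8.5e-05). EIF4EBP1, the relative of EIF4EBP2, rose (0.19, edgeR adjusted p = 0.040), so neither pair moved together. The word GATAACT, found earlier in these same fold changes, was in the 3′ UTR of 3 of the 24 genes searched, RICTOR, TSC1 and SKP1. Of these, 2 fell, and 7.71% of all tested genes searched carry the word. CSNK1A1 was not among the genes searched.

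Around DEPDC5, 29 other genes of GATOR, KICSTOR, the Rag complex and nutrient sensing were tested, and 3 fell, 6 rose and 20 did not pass, so 31.0% passed against 34.4% of all tested genes, with a median log2 fold change of 0.096. Both partners of DEPDC5 within GATOR1, named outside the rule for named genes, did not pass: NPRL2 had a log2 fold change of 0.17 and NPRL3 of 0.072. SEC13, a subunit of GATOR2 that also serves in vesicle coats, rose from 122 to 169 CPM (edgeR adjusted p = 4.3e-08). RRAGD, one of the Rag GTPases that recruit mTORC1 to lysosomes, rose from 17.1 to 26.6 CPM (edgeR adjusted p = 3.4e-07). LAMTOR5, a part of their lysosomal anchor, rose from 43.0 to 54.3 CPM. SESN3, a stress-induced inhibitor of mTORC1 that acts through GATOR2, fell 1.64-fold from 15.6 to 9.53 CPM (edgeR adjusted p = 1.5e-06). FLCN, an activator of RRAGC and RRAGD, fell from 29.2 to 24.9 CPM (edgeR adjusted p = 0.0186), which did not pass without siCTL replicate 2 (adjusted p = 0.0809) or in DESeq2 (0.0752).

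Around PREX1, 24 other Rac GTPases, exchange factors and effectors were tested, and 5 fell, 10 rose and 9 did not pass (62.5% passed, against 34.4% of all tested genes), with a median log2 fold change of 0.054. RAC1, a GTPase that PREX1 activates, stood at 358, 355 and 363 CPM in the controls and at 450, 483, 460 and 465 CPM in the knockdown libraries. It rose 1.30-fold with no overlap (log2 fold change 0.37, edgeR adjusted p = 8.5e-07). PAK1, a kinase activated by GTP-bound Rac, rose 1.40-fold from 38.1 to 53.5 CPM (edgeR adjusted p = 6.5e-07). The exchange factors DOCK1 and TRIO moved the other way: DOCK1 fell from 106 to 80.4 CPM (edgeR adjusted p = 1.2e-06) and TRIO from 317 to 241 CPM (1.3e-06). The number that passed, 15, went to 8 without siCTL replicate 1, 8 without siCTL replicate 3, 9 without siDEPDC1 replicate 2 and 7 without siDEPDC1 replicate 3, and it was 9 in DESeq2.

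Around DEPDC7, 18 genes of CARD-BCL10-MALT1 signalling were tested, and 8 fell, 2 rose and 8 did not pass (55.6% passed, against 34.4% of all tested genes), with a median log2 fold change of -0.17. BCL10, the adaptor of this pathway, rose from 32.9 to 39.8 CPM (edgeR adjusted p = 0.0060), and without siCTL replicate 1 it did not pass (0.0565). The NF-kB subunit genes NFKB1 and NFKB2 fell, from 44.5 to 34.0 CPM and from 86.1 to 71.1 CPM. NFKBIA, which encodes the inhibitor of NF-kB and is itself induced by NF-kB, fell from 94.3 to 71.9 CPM (edgeR adjusted p = 4.7e-06).

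Of 4 reported partners of DEPDC1 and DEPDC1B, 1 fell, 1 rose and 2 did not pass (50% passed, against 34.4% of all tested genes), with a median log2 fold change of 0.0038. ZNF224, a zinc-finger repressor reported to bind DEPDC1, stood at 25.0, 24.7 and 31.0 CPM in the controls and at 26.4, 21.1, 20.6 and 20.0 CPM in the knockdown libraries. Its groups overlapped, and its fall (log2 fold change -0.28, edgeR adjusted p = 0.0183) was lost in 7 of 15 alternative analyses. Among them were DESeq2 (adjusted p = 0.0653) and the fits without siCTL replicate 3 (0.158) and without siDEPDC1 replicates 2, 3 or 4 (0.0691, 0.0576 and 0.0651). The fit without siDEPDC1 replicate 4 is counted again as the 6 libraries numbered 1 to 3. TNFAIP3, the gene reported to be repressed by DEPDC1 with ZNF224, stood at 13.0 ± 1.23 CPM (SD, n = 3) and 12.6 ± 1.90 CPM (SD, n = 4). Its log2 fold change was -0.069 with a 95% interval of -0.30 to 0.16 (edgeR adjusted p = 0.674). RHOA, the GTPase reported to be inhibited by DEPDC1B, rose from 551 to 634 CPM (edgeR adjusted p = 0.0035), and the receptor phosphatase PTPRF did not pass (log2 fold change 0.077).

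Around the exchange factors and RGS proteins that carry a DEP domain, 11 partner and effector genes were tested, and 2 fell, 5 rose and 4 did not pass (63.6% passed, against 34.4% of all tested genes), with a median log2 fold change of 0.17. The genes that fell, RAP1A and RAP1B, encode small GTPases that are among those activated by RAPGEF3 and its relatives. RAP1A stood at 49.8, 48.5 and 55.8 CPM in the controls and at 15.7, 14.5, 16.4 and 11.9 CPM in the knockdown libraries, a fall of 3.53-fold (log2 fold change -1.82, edgeR adjusted p = 2.4e-18). RAP1B stood at 67.8, 69.4 and 68.9 CPM and at 24.3, 25.9, 25.1 and 23.2 CPM, a fall of 2.79-fold (log2 fold change -1.48, edgeR adjusted p = 1.8e-18). The groups were far apart for both. Both genes carry GATAACT in the 3′ UTR, as do 7.71% of the tested genes searched. The word was found in an earlier analysis of these same fold changes, so this adds no independent evidence. Outside the DEP domain and mTOR lists, it was also carried by TRIO, which fell, and by the mitotic gene MAD2L1, which did not pass. The related RAP2A rose from 58.5 to 68.7 CPM, and GNB5, the obligate partner of the R7 class of RGS proteins, rose from 33.9 to 42.0 CPM (edgeR adjusted p = 0.0050 and 0.0011).

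DEPDC1 and DEPDC1B are known as cell cycle genes, so 24 mitotic genes were set beside them: 15 rose, 1 fell and 8 did not pass (66.7% passed, against 34.4% of all tested genes, of which 16.5% rose), with a median log2 fold change of 0.23. PTTG1, which encodes securin, the inhibitor of separase, rose from 116 to 178 CPM (edgeR adjusted p = 1.3e-10). The mitotic kinesin KIF20A rose from 199 to 294 CPM (edgeR adjusted p = 4.6e-10), and cyclin B1 (CCNB1) rose from 244 to 321 CPM. CDK1, its kinase partner, was the gene that fell, from 156 to 137 CPM (log2 fold change -0.18, edgeR adjusted p = 0.0248), and it did not pass without siCTL replicate 2 (adjusted p = 0.0964), without siCTL replicate 3 (0.0838) or without siDEPDC1 replicate 4 (0.124). Most of the mitotic genes thus rose, while DEPDC1B did not pass. As the siRNA target, DEPDC1 cannot be read against these genes.

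**Figure D4:**
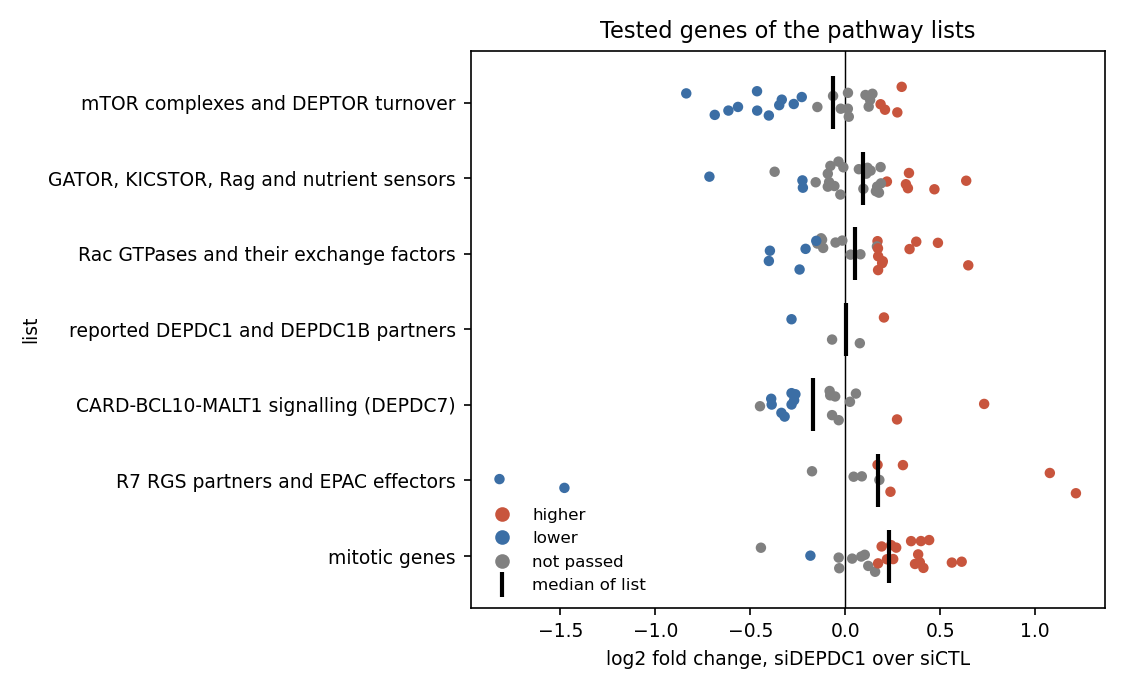
Log2 fold change (siDEPDC1 over siCTL, edgeR) of every tested gene in the lists around the DEP domain genes, 1 point for each gene (blue fell, red rose, grey did not pass), with a vertical bar at the median of each list. The list medians lie between -0.17 (CARD-BCL10-MALT1 signalling) and 0.23 (mitotic genes), and the points of single genes such as RAP1A at -1.82 lie far from them.

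Genes with profiles over the 7 libraries most like those of the members had the smallest root mean square difference of centred log2 CPM. They were sought among 11433 tested genes that had a symbol and a mean of at least 5 CPM. For DEPDC1 the most alike of these were ITGA10 (0.449), REEP3 (0.55) and SLC44A1 (0.595), where the median over all genes compared was 1.55. The antisense gene ENSG00000233589, which overlaps DEPDC1 (log2 fold change -3.52), had no symbol and was not compared. ITGA10, an integrin subunit for collagen, went from 47.1, 49.6 and 55.3 CPM to 12.6, 10.6, 8.73 and 9.98 CPM. For PREX1 they were CA9 (0.202), LCP1 (0.324) and SORCS3 (0.333), against a median of 0.935. CA9, the carbonic anhydrase known as a marker of hypoxia, went from 11.1, 11.9 and 9.30 CPM to 37.4, 34.4, 35.8 and 41.0 CPM. For DEPDC1B they were FAHD1 (0.0501), ERI1 (0.0565) and DNAJB4 (0.0581), against a median of 0.214. Like DEPDC1B, these 3 genes were lowest in siDEPDC1 replicate 4, at 10.2 CPM for FAHD1, 28.3 for ERI1 and 9.0 for DNAJB4. They were chosen for likeness to DEPDC1B over the same libraries, so the shared low is no separate result. These distances describe 7 libraries that share their groups, and say nothing of shared function or control.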

How the data were processed

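Per the labels' protocols, libraries were made from 1 µg of RNA with a TruSeq RNA kit and read as paired 100-base reads. The authors deposited raw counts for each Ensembl gene and library. Per the submitters' processing notes, the build was GRCh38 and FastQC, STAR 2.7.9a and DESeq2 were named, with no role given; the sources used here do not give the counter, the annotation release or the strand setting.

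Counts as deposited (60675 identifiers, 42022 with a symbol) were filtered with filterByExpr and compared between groups by the two-sided quasi-likelihood test of edgeR 4.0.16 under R 4.3.3 (TMM, robust dispersions), with no term other than group. Standard errors come from the F statistic. DEPTOR was fitted without the filter in the main comparison, while its fits that left out a library kept the filter. Coordinates, lengths and sequences come from GENCODE 29 (GRCh38), which may differ from the annotation used for counting, and 58444 identifiers were found in it. All replicate pairs differed by more than sampling noise. The method was tested on simulated data of 16583 genes with the library sizes of siDEPDC1 against siCTL. In them 100 genes differed 2-fold and 100 differed 1.5-fold, far fewer than passed in the real data. Of the 2-fold differences 87% were recovered, and of the 1.5-fold differences 77%. These shares therefore do not give the share recovered in the real comparison.

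Alternatives were DESeq2 1.42.0, limma-voom 3.58.1, other scalings and filters, a replicate block and leaving out each library. The 6 libraries numbered 1 to 3, also fitted without the block, are those left without siDEPDC1 replicate 4. Counts of alternatives therefore include that fit under both names. The members and the 8 lists were chosen with earlier results of these data known. Named genes are the members, called DEP domain genes, up to 4 called genes of each list by adjusted p plus up to 2 of the minority direction, called neighbours of DEPDC1, genes overlapping a member, and the 3 most alike profiles; not all of these are printed, and 1 list gene is not reported here.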

Additional observations from a re-analysis of the deposited data

Results flagged for a closer look

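Of 60 sets of 4 siDEPDC1 values examined, 3 had 1 library far from the other 3, as chance would give in about 1 of 20. PIKFYVE was 56.1 CPM in siDEPDC1 replicate 1 and 46.0 to 46.5 CPM in the others, and all 4 values were below the controls. RAPGEF5, an exchange factor for Ras-like GTPases, was 7.37 CPM in siDEPDC1 replicate 2 and 8.82 to 9.12 CPM in the others. PLEK was 0.0978 CPM in siDEPDC1 replicate 1 and 0 in the others.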

How the results depend on the processing

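DEPDC1 kept its fall in all 15 alternatives (log2 fold change -3.22 to -3.10) and PREX1 its rise in all 14 that gave a value (1.63 to 2.09, adjusted p at most 4.2e-05). DEPDC4, DEPDC5 and DEPDC7 passed in none, and DEPDC4 went from -0.077 to 0.43. DEPDC1B passed with no count filter (-0.21), and leaving out 1 library gave -0.28 to -0.094. DEPTOR had a value in only 7 alternatives. It passed in the 6 libraries numbered 1 to 3 (1.09), which is the fit without siDEPDC1 replicate 4. Those fits without 1 library that kept DEPTOR gave 0.65 to 1.13. These fits, and the fit with the replicate block, kept the filter on low counts, which the main fit of DEPTOR did not. The Rac list had 15 called genes, 9 in DESeq2 and 7 to 15 without 1 library. The partner list had 2 called genes and 1 in DESeq2, in the 6 libraries and with the block, and 1 to 2 without 1 library. The cause of these changes was not tested.

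Replicate numbers did not pair the samples: the deviations of same-numbered libraries correlated at -0.085, -0.0059 and -0.058 over 16583 genes, and no library was most alike to its own number. The fit with the replicate block used only the 6 libraries numbered 1 to 3. In it DEPTOR was 1.07 (edgeR adjusted p = 0.0498), DEPDC1 -3.10 and PREX1 1.74. It had 2437 genes lower and 2292 higher, against 2975 and 2732 in the main fit of all 7 libraries. The share that passed was 28.5% with the block and 32.5% in the same 6 libraries without it. Of the genes named, ZNF224, CDK1 and ERI1 lost their calls in these 6 libraries both with the block and without it (edgeR adjusted p without it 0.0651, 0.124 and 0.181). Without the filter 14.9% of genes passed, with the stricter count filter 41.9% and in DESeq2 24.8%. The share that passed thus depended on which low-count genes were tested, and the list shares above are not matched for level. With library size alone the higher share of calls went from 47.9% to 55.7%.

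With the longest transcript as length, siCTL and siDEPDC1 means were 22.1 and 2.50 RPKM for DEPDC1, 16.7 and 14.6 for DEPDC1B, 1.46 and 1.35 for DEPDC5, and 0.289 and 0.466 for DEPDC7, and the siDEPDC1 mean of DEPDC4 was 0.624. The stricter count filter removed DEPDC4, DEPDC7 and PREX1, so it gave no value for them. DEPDC4, DEPDC7, DEPTOR and PREX1 had at most 41 counts in any library, and their values are limited by depth.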
